A study of Mus musculus with 6 samples.

Results

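Passage from G1 into S phase is driven by cyclins bound to cyclin-dependent kinases (CDKs). The D-type cyclins, encoded by Ccnd1, Ccnd2 and Ccnd3, bind the kinases of Cdk4 and Cdk6, and the E-type cyclins of Ccne1 and Ccne2 bind the kinase of Cdk2. Both kinds of complex phosphorylate the retinoblastoma protein and its relatives, which then release E2F transcription factors. Cdkn1b encodes the inhibitor p27, which binds cyclin-CDK complexes, and Cdkn2c encodes p18, an INK4 inhibitor that binds the kinases of Cdk4 and Cdk6 and keeps D-type cyclins off them. In the mouse mammary gland, cyclin D1 is known for its part in alveolar growth and in tumours driven by some oncogenes.

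These 10 genes were taken by their symbols from the 14766 gene annotations of the read files, and the reads under each symbol were summed in each library. All 10 were among the 11125 genes with enough reads to be tested. The reads came from Mvt1, a mammary epithelial carcinoma line of the FVB/N mouse strain, sorted by flow cytometry into cells without surface CD24 (CD24- cells) and cells with it (CD24+ cells). CD24 is a small glycoprotein anchored in the cell membrane. Both groups were grown as adherent cells in the same serum-supplemented medium, and RNA was taken from 3 plates of each. Only 1 line was used, and no independent sorts are described, so every p-value below measures the spread between plates of 2 sorted populations.

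Libraries held 9046025 to 25692147 mapped reads, of which 71.8% to 74.3% were annotated to a gene, and CD24+ replicate 1 was the shallowest. Levels are given as CPM, reads scaled to 1000000 gene reads of a library after TMM normalization. Cd24a, the gene of the sorted marker, had 7.0 to 12.1 CPM in CD24- libraries and 72.5 to 85.6 CPM in CD24+ libraries. Of 9 luminal markers, which summed to 1848 to 2043 CPM in CD24- and 761 to 906 CPM in CD24+ libraries, Krt8, Krt18 and Krt19 were lower and Cldn3 higher in CD24+ cells, while Epcam and Cdh1 had 6 and 2 reads in all 6 libraries together. Of 6 fibroblast markers, summing to 8.12 to 15.6 and 63.0 to 96.7 CPM, 4 were higher and Lum and Thy1 had 0 reads. Of 5 leukocyte markers, summing to 43.4 to 76.1 and 7.17 to 9.44 CPM, Cd68 was lower, Ptprc and Csf1r had 2 and 6 reads, and Cd3e had 0. The 3 basal markers summed to at most 1.57 CPM, and the 4 endothelial markers to at most 3.98 CPM, Cdh5 being lower in CD24+ cells. The part of these markers in the results below was not tested. In bulk RNA, fewer cells with a transcript and less of it per cell cannot be told apart.

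At an adjusted p below 0.05 in edgeR's quasi-likelihood test with Benjamini-Hochberg adjustment over all tested genes, 7 of the 10 genes differed between the groups, where 46.1% of all tested genes did. Ccnd1, Ccnd2, Cdkn1b and Cdkn2c were higher in CD24+ cells (4 genes, against 23.8% of all tested genes), and Ccnd3, Ccne1 and Cdk2 were lower (3 genes, against 22.3%). Cdk4, Cdk6 and Ccne2 did not pass. With each distinct sequence counted once 4 of the 10 were called (33.4% of all tested genes), with the median of coverage over a transcript 5 (32.9%) and with the replicate number as a block 6 (40.4%). The groups did not overlap for the same 7 genes, where they did not overlap for 57.3% of all tested genes. The median log2 fold-change of the 10 genes was 0.05, and that of all tested genes was 0.02. The median absolute log2 fold-change was 0.43 for the 10 genes and 0.29 for all.

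**Figure D1:**
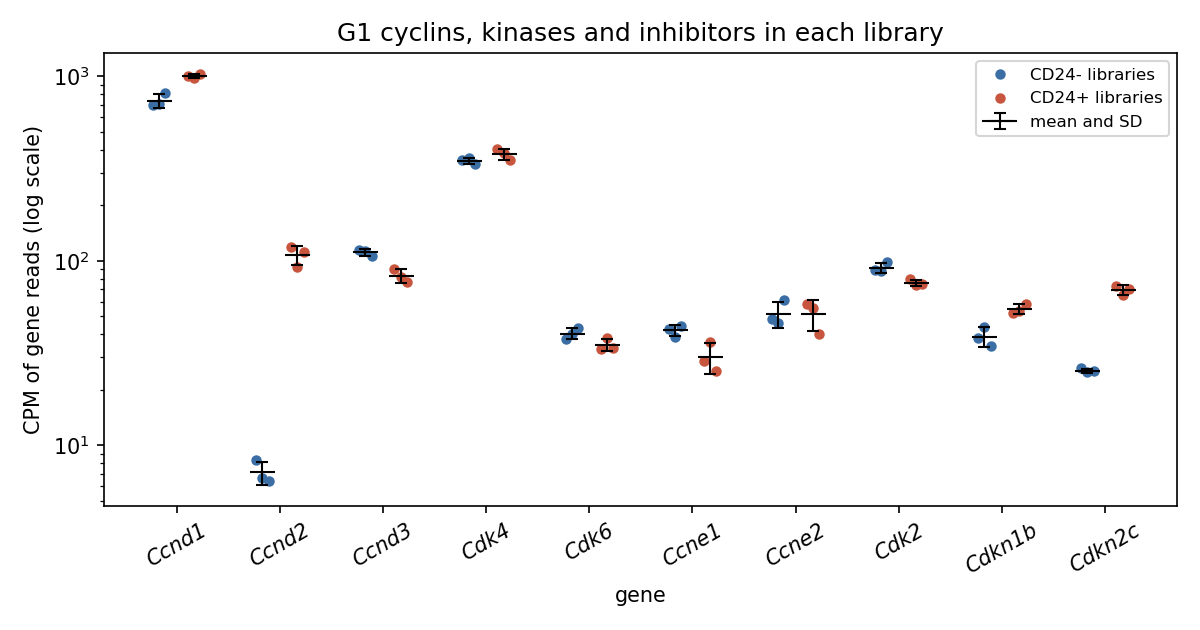
Reads of each gene in each library, in CPM of gene reads on a log axis. Points are the 3 CD24- (blue) and 3 CD24+ (red) libraries, with the mean and SD in black. Ccnd2 moves from 6.43 to 8.32 CPM up to 92.9 to 119 CPM, and the points of Cdk4, Cdk6 and Ccne2 overlap between groups.

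Ccnd2 showed the widest difference among the 10 genes. It had 8.32, 6.64 and 6.43 CPM in CD24- replicates 1, 2 and 3, from 79, 70 and 57 reads, and 119, 92.9 and 111 CPM in CD24+ replicates 1, 2 and 3, from 754, 1645 and 2124 reads. Every CD24+ library was far above every CD24- library. The log2 fold-change was 3.91 (SE 0.14, adjusted p = 2.83e-08 from edgeR), or 15.0-fold, and only 88 of the tested genes had a higher log2 fold-change. On the median of coverage, the study's own kind of estimate, its log2 fold-change was 1.01 and still passed (limma), with a regularizer of 10 added to each value, which shrinks the change of genes at low values. Its annotated reads spanned chr6:127075688-127101038 of the mm9 genome, on the minus strand. The coding-part sequence of Ccnd2 with the most reads over all 6 libraries is shown as an example. It had 0, 0 and 0 reads in CD24- and 3, 2 and 4 reads in CD24+ libraries. Most Ccnd2 reads came from CD24+ libraries, so this choice favours a sequence with few or no CD24- reads. The sequence lies at chr6:127096094-127096140 (mm9), inside the coding part. It is printed in lower case as deposited, in the orientation of the transcript.
Ccnd2 read: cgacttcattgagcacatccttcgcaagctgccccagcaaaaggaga

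Single sequences such as this one are thinly covered, and the difference rests on the whole transcript. In the plot of reads along transcripts, CD24+ reads ran over the coding part and the long 3′ UTR of Ccnd2, with CD24- reads low throughout. The 372 reads that matched Ccnd2 transcripts without carrying any annotation, all in the 3′ UTR, were not part of the count above. They gave 0.737, 0.379 and 0.338 CPM in CD24- and 8.19, 8.25 and 8.39 CPM in CD24+ libraries, again with no overlap (exact permutation test, two-sided p = 0.1, the smallest that 3 libraries against 3 can give). Reads annotated to Ccnd2 but outside its transcripts numbered 0, 0 and 1 in CD24- libraries and 5, 24 and 31 in CD24+ libraries.

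Ccnd1, whose product is the cyclin D1 best known in breast cancer, was the most read of the 10 genes. It had 696, 709 and 811 CPM in CD24- libraries and 1001, 978 and 1036 CPM in CD24+ libraries. All CD24+ values lay above all CD24- values. The difference was 0.44 on the log2 scale (SE 0.09, adjusted p = 0.00189 from edgeR). Its annotated reads spanned chr7:152115802-152125830 (mm9, minus strand). With each distinct sequence counted once per library the difference was 0.11 with an adjusted p of 0.615 from edgeR, and the call was lost. The 64711 annotated reads of Ccnd1 in the 6 libraries fell on 5995 distinct sequences, and the part of such repeats in the lost call was not tested. A read can begin at 3510 positions of the Ccnd1 transcript, on either strand. The call thus depended on how reads were counted, and whether the number of positions limits the distinct count was not tested. Of the 64711 annotated reads, 16970 matched the transcripts of more than 1 gene. On the reads that matched Ccnd1 alone the log2 fold-change was 0.40.

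Ccnd3 went the other way. It had 114, 113 and 106 CPM in CD24- libraries and 90.8, 82.1 and 76.6 CPM in CD24+ libraries. The CD24+ libraries were all lower. Its log2 fold-change was -0.43 (SE 0.09, adjusted p = 0.00261 from edgeR), with reads over chr17:47642056-47736671 (mm9, plus strand). With each distinct sequence counted once the adjusted p was 0.0523. The most read coding sequence of Ccnd3 is shown as the counterpart of that of Ccnd2. It lies at chr17:47735660-47735706 (mm9) and reads as the reverse complement of the transcript. It had 8, 17 and 9 reads in CD24- and 4, 8 and 3 reads in CD24+ libraries. These counts come from libraries of unequal depth and were not scaled, so they do not compare the groups.
Ccnd3 read: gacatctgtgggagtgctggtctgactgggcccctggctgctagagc

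To set the D-type cyclins against each other, the reads of each gene were divided by the number of positions at which a read could match its transcript. On this scale Ccnd1 made up 76.8% ± 2.23 of the D-type cyclin transcripts in CD24- and 81.7% ± 1.33 in CD24+ cells, Ccnd3 22.8% ± 2.17 and 13.3% ± 1.15, and Ccnd2 0.429% ± 0.080 and 5.03% ± 0.502 (SD, n = 3 each). The shares of Ccnd2 and Ccnd3 moved in opposite directions without overlap (exact permutation test, two-sided p = 0.1 for each of the 5 shares compared). These shares rest on annotated reads, which leave out 12.5% of the reads that matched Ccnd3 alone. On transcript-matched reads, those matching 1 gene alone, Ccnd1 made up 70.9% ± 3.14 in CD24- and 76.5% ± 1.83 in CD24+ cells. On the same reads Ccnd3 made up 28.5% ± 3.06 and 16.7% ± 1.61, and Ccnd2 0.571% ± 0.120 and 6.83% ± 0.628. Such reads leave out the 16970 Ccnd1 reads that matched more than 1 gene. Ccnd1 remained the main D-type transcript in all 6 libraries. The CD24+ minus CD24- difference in its own share was 4.91 percentage points per length, 5.53 on transcript-matched reads and 4.23 on coding parts, the groups overlapping in the latter pair of estimates. It was -2.07 with reads not divided by length, where the longer Ccnd2 transcript weighs more and the groups did not overlap either. The value for distinct sequences was -2.11, with overlap. Restricted to the coding part, an estimate added after the data were seen, Ccnd2 made up 0.494% ± 0.201 and 4.99% ± 0.891.

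**Figure D2:**
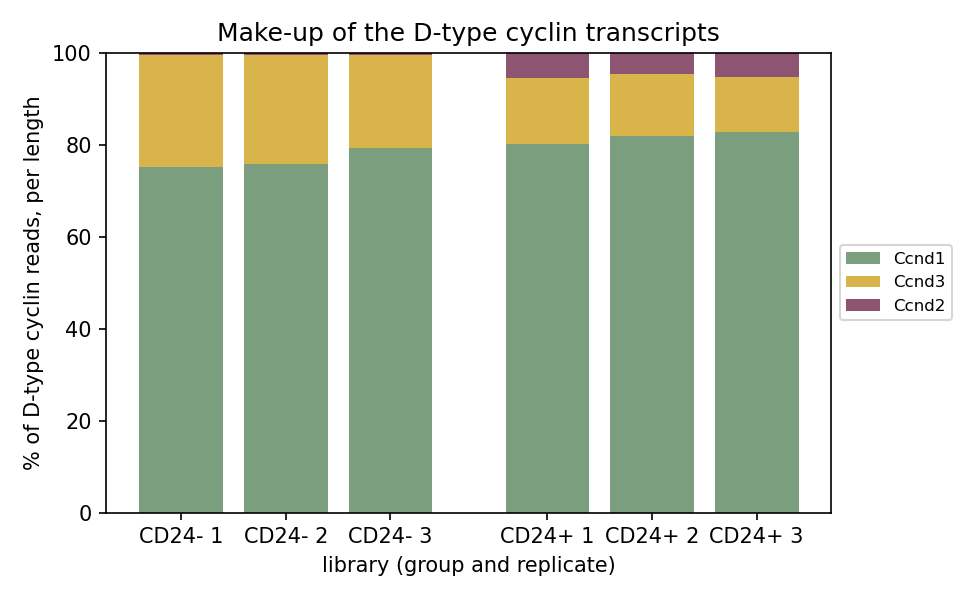
Share of each D-type cyclin among D-type cyclin reads per length, in percent, 1 bar per library. Ccnd3 (yellow) shrinks from 20.3% to 24.3% in CD24- libraries to 12% to 14.3% in CD24+ libraries, and Ccnd2 (purple) grows from at most 0.518% to between 4.49% and 5.47%.

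Neither partner kinase of the D-type cyclins passed the test. Cdk4 had 351, 360 and 335 CPM in CD24- and 403, 383 and 352 CPM in CD24+ libraries. The groups overlapped, with CD24+ replicate 3 inside the CD24- range. In the test Cdk4 had a log2 fold-change of 0.12 (95% interval -0.06 to 0.30, adjusted p = 0.243 from edgeR). Reads of Cdk4 spanned chr10:126500624-126504496 (mm9, plus strand).

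Cdk6 had 37.6, 40.1 and 43.3 CPM in CD24- and 33.2, 38.2 and 33.9 CPM in CD24+ libraries. CD24+ replicate 2 lay within the CD24- range. Its log2 fold-change was -0.20 (95% interval -0.42 to 0.03, adjusted p = 0.137 from edgeR). Its annotated reads are a small part of its signal, because 81.7% of the 11046 reads that matched Cdk6 transcripts alone carried another annotation or none, mostly in a 3′ UTR of 10217 nt. On all transcript-matched reads the gene had 166, 159 and 174 CPM in CD24- and 133, 148 and 158 CPM in CD24+ libraries, with a log2 fold-change of -0.18 (adjusted p = 0.109 from edgeR). Those groups did not overlap, and the difference did not pass the test. Cdk4 made up 98.3% ± 0.171 of Cdk4 plus Cdk6 transcripts per length in CD24- and 98.6% ± 0.134 in CD24+ cells on annotated reads, and 93.5% ± 0.438 and 94.5% ± 0.740 on transcript-matched reads (SD, n = 3 each). The groups overlapped on transcript-matched reads. The annotated share leaves out most Cdk6 reads but divides by its full length. On coding parts the share was 95.6% ± 0.409 and 96.9% ± 0.039, without overlap.

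The Cdk4 promoter is shown for its E-boxes, CACGTG, the palindrome bound by Myc and related factors. It is the RefSeq reference sequence of GRCm38.p6 at chr10:127063285-127063584, plus strand, with 250 bases before and 50 after the start site, and the capitals mark the E-boxes. They begin 172, 118, 98 and 11 bases before the start site. An E-box occurred in 7.15% of 32851 mouse promoters of this length, and 4 or more in 8 of them.
Cdk4 promoter: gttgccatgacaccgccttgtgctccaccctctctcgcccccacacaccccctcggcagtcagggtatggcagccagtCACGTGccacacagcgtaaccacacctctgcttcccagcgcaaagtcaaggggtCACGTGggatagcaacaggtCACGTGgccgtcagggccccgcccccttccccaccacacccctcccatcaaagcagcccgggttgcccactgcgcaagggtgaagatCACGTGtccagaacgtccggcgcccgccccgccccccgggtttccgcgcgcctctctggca

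Promoters were found for 7 of the 10 genes, and none was matched for Ccnd1, Ccnd2 or Ccne2. The 5 motifs searched on both strands were the E-box spelled above, the CCAAT box, the CRE TGACGTCA, the AP-1 site TGANTCA and the E2F site as TTTGGCGC, TTTCCCGC, TTTCGCGC or TTTGCCGC. None of the 5 overlapped another in a member's promoter. Cdk6 had 1 E-box, Cdk2 an E2F site (in 2.26% of all promoters) and a CCAAT box (37.4%), and Ccne1 none of the 5. Of 2 Ccnd3 promoters, 1 had a CCAAT box and the other none of the 5. A match describes the letters and says nothing about binding.

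Among the E-type cyclins, Ccne1 had 42.5, 38.8 and 44.4 CPM in CD24- and 28.5, 36.4 and 25.2 CPM in CD24+ libraries. The CD24+ libraries were lower, CD24+ replicate 2 coming close to the lowest CD24- value. For Ccne1 the log2 fold-change was -0.48 (SE 0.14, adjusted p = 0.0169 from edgeR) over chr7:38883004-38892508 (mm9, minus strand). The call was lost without CD24+ replicate 3 (-0.36, adjusted p = 0.0667).

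Ccne2 had 48.2, 45.8 and 61.2 CPM in CD24- and 58.6, 55.5 and 40.2 CPM in CD24+ libraries. The groups overlapped, and both the highest and the lowest value came from a replicate 3. Its log2 fold-change was -0.02 (95% interval -0.37 to 0.33, adjusted p = 0.927 from edgeR), with reads over chr4:11118492-11131743 (mm9, plus strand). On annotated reads, the share of Ccne1 among E-type cyclin transcripts per length was 58.0% ± 2.52 in CD24- and 49.8% ± 4.0 in CD24+ cells (SD, n = 3 each, exact permutation test, two-sided p = 0.1), without overlap. This leaves out part of Ccne2, as 39.0% of the reads that matched Ccne2 alone carried another annotation. The share was 49.7% ± 3.70 and 41.7% ± 4.94 on transcript-matched reads. On coding parts it was 43.8% ± 4.13 and 36.7% ± 5.70, and neither estimate had overlap.

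Cdk2, the kinase partner of both, had 89.0, 87.6 and 98.3 CPM in CD24- and 79.3, 74.0 and 75.0 CPM in CD24+ libraries. All CD24+ values were lower. Cdk2 had a log2 fold-change of -0.27 (SE 0.08, adjusted p = 0.0209 from edgeR), the smallest of the 7 that passed, over chr10:128135002-128142102 (mm9, minus strand). It did not pass without CD24- replicate 1 (adjusted p = 0.0524), CD24+ replicate 2 (adjusted p = 0.0508) or CD24+ replicate 3 (adjusted p = 0.0654), with -0.29, -0.26 and -0.27 as the fold-changes. Nor did it pass on distinct sequences (-0.17, adjusted p = 0.151), with the replicate number as a block (-0.27, adjusted p = 0.0575) or with the median of coverage (-0.19, adjusted p = 0.0534 from limma).

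Some mouse Cdk2 transcripts carry an additional in-frame coding exon of 144 nt, which adds 48 residues to the kinase. Reads inside that exon numbered 5, 8 and 9 in CD24- and 7, 21 and 19 in CD24+ libraries. Their density relative to the other coding exons was 0.088, 0.129 and 0.155 in CD24- and 0.215, 0.230 and 0.203 in CD24+ libraries. The CD24+ ratios were all higher, at 0.216 ± 0.014 against 0.124 ± 0.034 (SD, n = 3 each, exact permutation test, two-sided p = 0.1). This exon was picked after its values were seen, and it rests on 22 and 47 reads. A read from the exon is shown to identify it, at chr10:128137127-128137173 (mm9), as the reverse complement of the transcript.
Cdk2 exon read: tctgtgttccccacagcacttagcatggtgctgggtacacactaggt

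Both inhibitors were higher in CD24+ cells. Cdkn2c had 26.1, 24.9 and 25.1 CPM in CD24- and 73.4, 65.3 and 70.2 CPM in CD24+ libraries. The 3 plates of each group were close together and the groups far apart. The log2 fold-change was 1.45 (SE 0.09, adjusted p = 8.17e-07 from edgeR), or 2.73-fold, over chr4:109333436-109338017 (mm9, minus strand). A change at least as high was seen for 6.65% of tested genes. On the median of coverage the log2 fold-change of Cdkn2c was 0.84 and passed (limma).

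A further set of reads covered another part of Cdkn2c in the same libraries, and is not an independent measurement. GENCODE lists a long transcript with 1591 nt before the coding part, and 3137 reads that matched this 5′ UTR carried no annotation, so none of them entered the count above. The first 400 nt of this transcript model held almost no reads, at most 0.032 CPM per 100 nt in either group's mean. The unannotated reads gave 24.3, 22.6 and 24.4 CPM in CD24- and 55.6, 57.3 and 56.9 CPM in CD24+ libraries. The groups did not overlap, and the CD24+ mean was 2.38 times the CD24- mean (exact permutation test, two-sided p = 0.1). Reads under the Cdkn2c annotation but outside its transcripts were also higher, at 3.58 ± 0.596 against 8.25 ± 1.48 CPM (SD, n = 3 each).

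RefSeq gives Cdkn2c a pair of start sites, whose separate use was not measured here. The promoters of both are shown. Both are GRCm38.p6 reference sequence on the minus strand, at chr4:109666707-109667006 for the upstream and chr4:109665323-109665622 for the downstream start. Capitals mark CCAAT and the E-box, which begin 7 and 34 bases after the downstream start site. The upstream promoter had 73.3% G or C and none of the 5 motifs, the downstream one 44%, against a median of 52.7% over all promoters.
Cdkn2c upstream promoter: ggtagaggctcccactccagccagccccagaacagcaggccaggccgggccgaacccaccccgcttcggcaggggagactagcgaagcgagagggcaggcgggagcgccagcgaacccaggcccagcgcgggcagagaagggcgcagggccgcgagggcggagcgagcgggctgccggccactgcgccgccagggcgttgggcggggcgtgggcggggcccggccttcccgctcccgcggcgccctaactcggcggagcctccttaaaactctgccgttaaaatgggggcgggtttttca
Cdkn2c downstream promoter: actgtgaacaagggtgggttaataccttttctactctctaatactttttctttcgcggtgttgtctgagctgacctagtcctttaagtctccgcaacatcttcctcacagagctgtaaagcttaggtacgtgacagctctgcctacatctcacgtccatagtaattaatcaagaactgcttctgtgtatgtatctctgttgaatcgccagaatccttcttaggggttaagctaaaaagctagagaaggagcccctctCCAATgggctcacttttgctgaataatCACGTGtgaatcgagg

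Cdkn1b had 38.3, 43.8 and 34.4 CPM in CD24- and 52.4, 53.4 and 58.4 CPM in CD24+ libraries. All CD24+ values were higher. The log2 fold-change was 0.50 (SE 0.11, adjusted p = 0.00349 from edgeR) over chr6:134870389-134874121 (mm9, plus strand). In 3′ UTR reads that carried no annotation, 2617 in all, the gene had 31.7, 25.4 and 23.7 CPM in CD24- and 41.6, 42.1 and 43.5 CPM in CD24+ libraries, also without overlap. The median of coverage gave 0.06 for Cdkn1b (adjusted p = 0.491 from limma with Benjamini-Hochberg adjustment), so the call depended on the estimate.

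The Cdkn1b promoter is printed beside those of Cdkn2c because both inhibitors were higher in CD24+ cells. It lies at chr6:134920151-134920450 of GRCm38.p6, plus strand, and capitals mark CCAAT or its reverse complement ATTGG, which begin 161 and 35 bases before and 45 bases after the start site. At least 3 such matches were found in 3.37% of all promoters.
Cdkn1b promoter: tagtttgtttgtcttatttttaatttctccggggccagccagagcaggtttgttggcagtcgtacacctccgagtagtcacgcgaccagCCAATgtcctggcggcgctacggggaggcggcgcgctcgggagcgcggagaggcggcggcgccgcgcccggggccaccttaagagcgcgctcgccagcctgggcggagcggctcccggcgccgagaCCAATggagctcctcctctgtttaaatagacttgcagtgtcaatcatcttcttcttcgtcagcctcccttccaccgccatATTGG

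**Figure D3:**
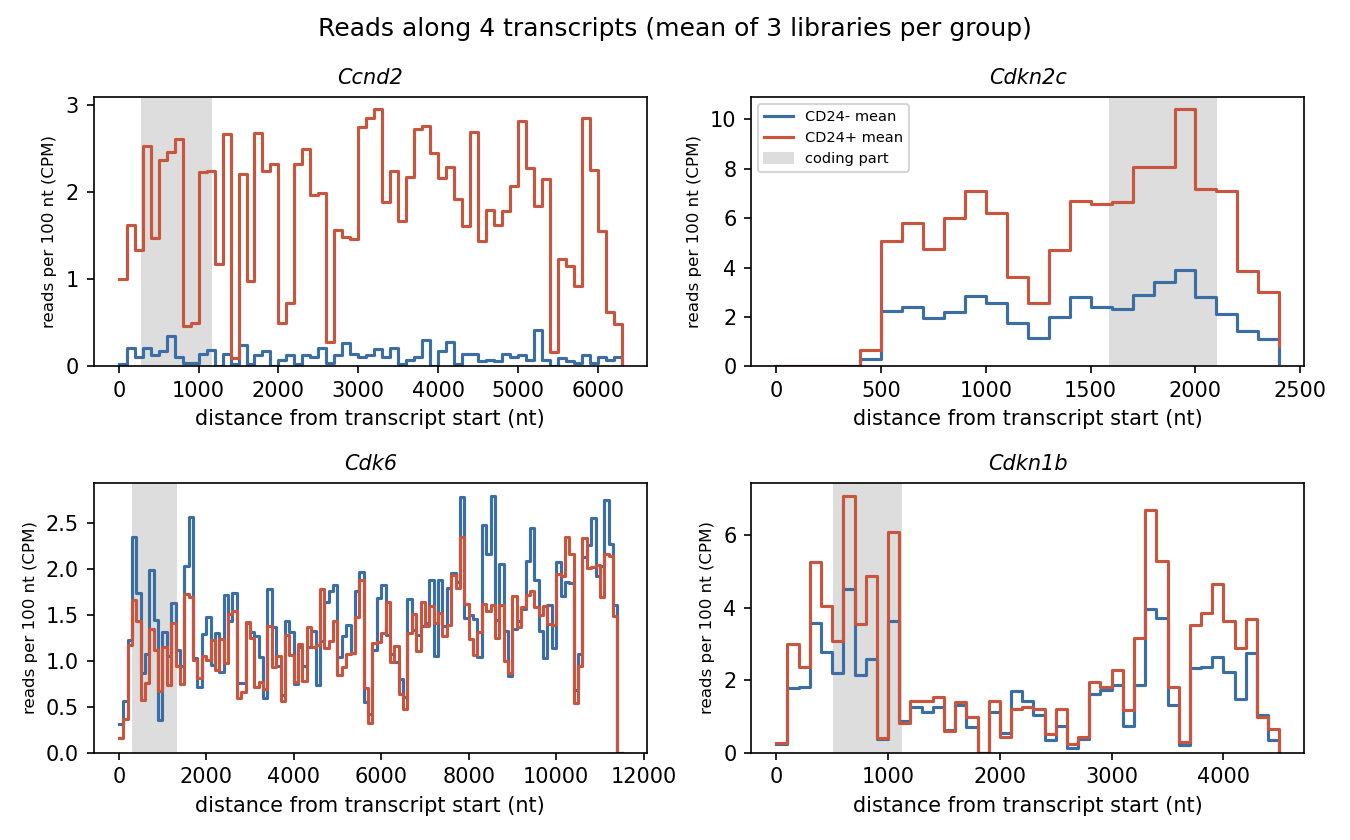
Reads per 100 nt of transcript, in CPM and as the mean of 3 libraries, against the distance from the transcript's start, for CD24- (blue) and CD24+ (red) cells, with the coding part shaded. Ccnd2 and Cdkn2c are higher in CD24+ cells along the transcript, Cdkn1b mainly over the 5′ UTR, the coding part and the distal 3′ UTR, and the lines of Cdk6 run close together.

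The deposited annotation covered the transcripts of these genes unequally, and the same test on reads that matched GENCODE transcripts of 1 gene exactly gave each of the 10 genes the same direction and the same side of the threshold. On those reads 45.6% of 12120 genes were called. Cdkn2c had 46.9 ± 1.86 and 119 ± 3.72 CPM and Cdkn1b 74.4 ± 7.34 and 106 ± 4.36 CPM (SD, n = 3 each), with log2 fold-changes of 1.35 and 0.51. Ccnd2 had a log2 fold-change of 3.88 and Ccnd3 of -0.47. Of the reads that matched Ccne2 alone, 1488 were annotated to Ints8, whose gene overlaps the 3′ end of Ccne2 on the opposite strand. The deposited annotation and the transcript match thus assigned these reads to different genes, and the reads carry no strand.

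**Figure D4:**
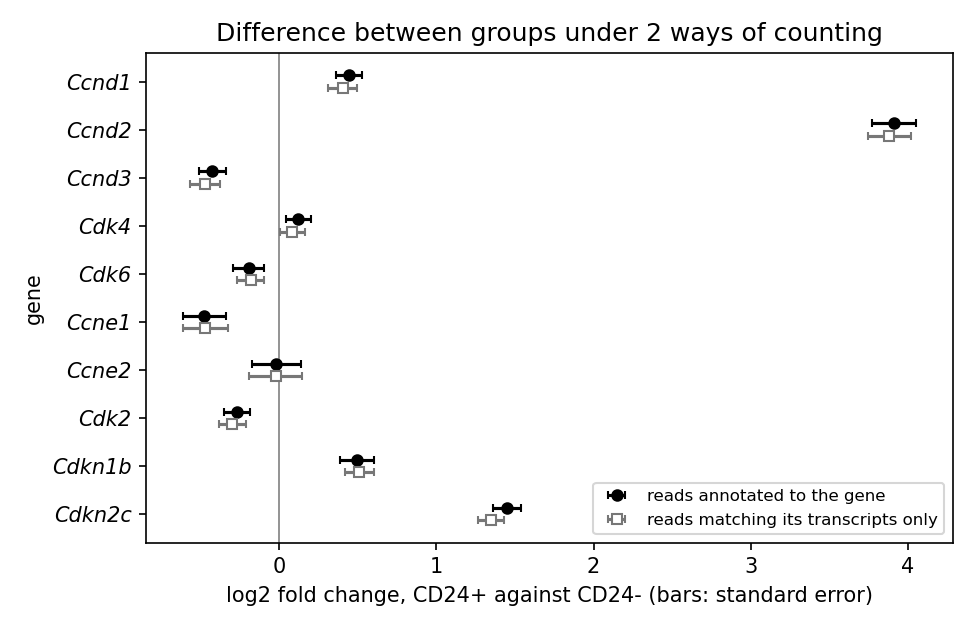
The log2 fold-change of CD24+ against CD24- cells with its standard error, for reads annotated to a gene (filled circles) and reads matching only its transcripts (open squares). Both ways of counting place Ccnd2 near 3.9, Cdkn2c at 1.45 and 1.35, and Ccne2 at the 0 line.

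Levels of different genes were compared per length in the coding part only, as CPM per kb of read windows. A window is a position of the coding part at which a 47-nt read can begin without crossing an exon junction, so the scale corrects for junction reads, which exact mapping loses. For Cdk2, 98 of the 673 windows lie in its additional exon, which was less densely read than its other coding exons. The place of Cdk2 among its near neighbours, and its overlap with them, thus depend on the transcript model. In CD24- cells the order by mean coding density was Cdk4 (419), Ccnd1 (296), Ccnd3 (78.4), Cdk2 (54.7), Ccne2 (46.6), Ccne1 (36.0), Cdkn2c (34.8), Cdkn1b (28.1), Cdk6 (19.4) and Ccnd2 (1.84). The ranges over libraries overlapped for the neighbours Cdk2 and Ccne2, Ccne2 and Ccne1, and Ccne1 and Cdkn2c. In CD24+ cells the order was Cdk4 (458), Ccnd1 (390), Cdkn2c (93.7), Ccnd3 (57.3), Cdkn1b (46.1), Cdk2 (45.8), Ccne2 (45.0), Ccne1 (25.7), Ccnd2 (23.6) and Cdk6 (14.8), with overlap between Cdkn1b and Cdk2, Cdk2 and Ccne2, and Ccne1 and Ccnd2.

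Cdkn2c thus stood in place 7 of 10 by coding density per window in CD24- cells and in place 3 in CD24+ cells. Ccnd2, last in CD24- cells, lay in the same range as Ccne1 in CD24+ cells and above Cdk6. The coding density of Cdk6 was 19.0, 18.4 and 20.7 in CD24- and 15.3, 15.0 and 14.0 in CD24+ libraries, without overlap (exact permutation test, two-sided p = 0.1). On this measure the groups did not overlap for any of the 10 genes but Cdk4 and Ccne2. The share of all genes without overlap in coding density was not computed, and this comparison was not planned.

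Of 65 other genes of the G1 to S pathway, in 4 lists, 60 were tested, and 10 were higher and 10 lower in CD24+ cells. The split moved to 8 higher and 13 lower with DESeq2, which differs in both test and scaling. With only the scaling changed in edgeR, it was 9 and 12 with DESeq2 size factors and 9 and 13 without TMM. It also moved with single libraries, to 7 and 15 without CD24+ replicate 2 and 6 and 9 without CD24- replicate 2. The called share was 33.3%, against 46.1% of all tested genes, and the median log2 fold-change was -0.03.

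Among 17 genes of the retinoblastoma family and E2F, 5 were higher, 3 lower and 9 did not pass, with a median log2 fold-change of -0.11. The called share was 47.1%, against 46.1% of all tested genes. Rb1, the retinoblastoma gene, had 27.8, 25.3 and 25.4 CPM in CD24- and 51.2, 45.4 and 65.8 CPM in CD24+ libraries. Its groups were well apart, with a log2 fold-change of 1.05 (SE 0.14, adjusted p = 1.62e-04 from edgeR). Its relative Rbl1 rose by 0.44. E2f3, encoding an E2F activator, was lower at -0.69, while E2f1, encoding another activator and named after its values were seen, was higher at 0.39 (adjusted p = 0.0116). E2f4, encoding the E2F most tied to repression in resting cells, was lower at -0.50.

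Of 6 other CDK inhibitor genes, 2 were tested and neither passed. Cdkn1a, encoding p21, had 254.6, 248 and 262 CPM in CD24- and 258, 139 and 200 CPM in CD24+ libraries, which overlapped, with a log2 fold-change of -0.36 (adjusted p = 0.115 from edgeR). Cdkn2d, encoding the INK4 inhibitor p19, had a low level of 3.30 ± 1.19 and 2.33 ± 0.660 CPM (SD, n = 3 each), with a log2 fold-change of -0.56 (adjusted p = 0.183). Cdkn1c, Cdkn2a and Cdkn2b had 0 annotated reads and 0 reads that matched their transcripts alone, in any library, which allows up to 0.462 CPM in the shallowest library and 0.157 CPM in the deepest (3 reads each). Cdkn3, a CDK-binding phosphatase, had no annotated reads but 871 matched reads, with a log2 fold-change of 0.72 (adjusted p = 0.00275 from edgeR on matched reads).

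Among 21 genes for activation and turnover of the complexes, 4 were higher, 4 lower and 13 did not pass. The called share was 38.1%, against 46.1% of all tested genes, and the median log2 fold-change was -0.02. Usp2, encoding a deubiquitinase known to act on cyclin D1, had 2.0, 1.23 and 0.789 CPM in CD24- and 4.88, 5.88 and 7.02 CPM in CD24+ libraries. Its level was low and the groups did not overlap, with a log2 fold-change of 2.16 (SE 0.30, adjusted p = 2.40e-04 from edgeR). Fbxo4, an F-box gene, was higher at 0.64. Fbxw7, encoding the F-box protein that marks cyclin E for degradation, was lower at -0.71 (adjusted p = 6.75e-04), and Cdk7, the CDK-activating kinase, at -0.46.

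Among 21 genes for entry into S phase, mostly E2F targets, 1 was higher, 3 were lower and 16 of the 20 tested did not pass. The called share was 20%, against 46.1% of all tested genes, and the median log2 fold-change was 0.01. Rrm2, the small subunit of ribonucleotide reductase, had 482, 492 and 585 CPM in CD24- and 263, 306 and 250 CPM in CD24+ libraries. The CD24+ libraries were all lower, and the log2 fold-change was -0.93 (SE 0.11, adjusted p = 5.72e-05 from edgeR). Gins2, of the replicative helicase, was higher at 0.38. Mki67, a marker of cycling cells, was not among the tested annotations, and its 68805 matched reads gave a log2 fold-change of -0.08 (SE 0.14, adjusted p = 0.662).

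**Figure D5:**
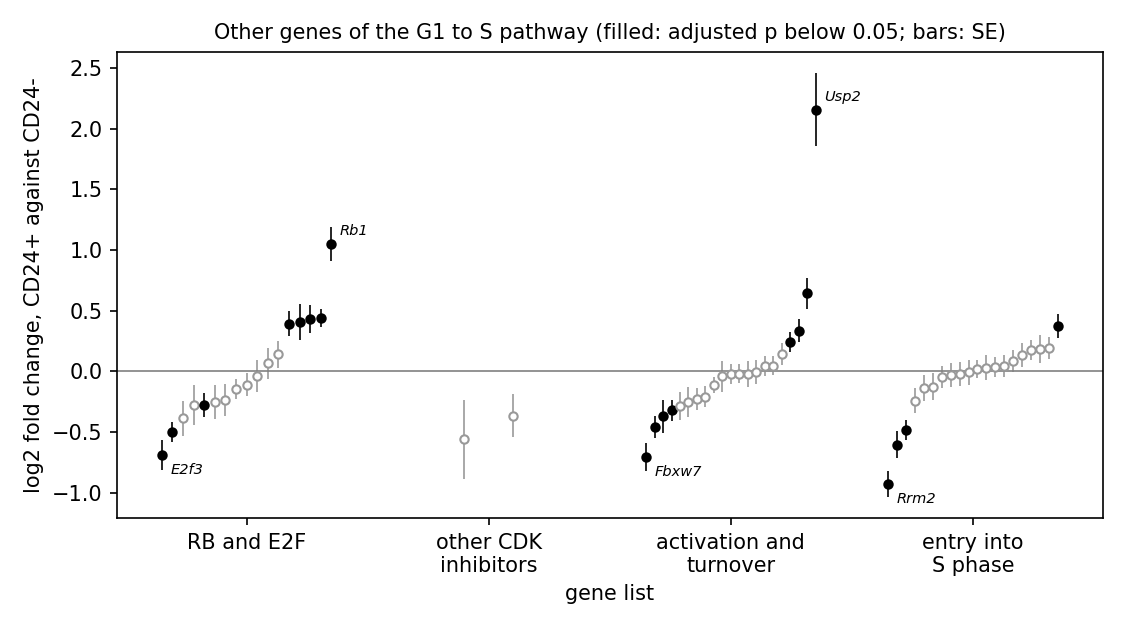
The log2 fold-change of CD24+ against CD24- cells for 60 other genes of the G1 to S pathway, in 4 lists, with standard errors. Filled points passed at an adjusted p below 0.05, and the genes furthest from 0 are Usp2 (2.16), Rb1 (1.05) and Rrm2 (-0.93).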

How the data were processed

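Per the labels and the study's methods, cDNA libraries (TruSeq v2) were read on a HiSeq and the reads trimmed. The kit is known as not strand-specific, which the study's methods do not state. The authors collapsed identical 47-nt reads, mapped them by exact match to mm9 (the submitters' processing notes) and gave each 1 location and 1 annotation. They deposited the read count of each sequence per library, without normalization or pooling. Exact matching loses reads over exon junctions and variants. The source of the annotation is not given in the sources used here.

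The deposited counts were summed per gene annotation. Reads annotated to repeats, small RNA or nothing (25.7% to 28.2% of a library) were left out. CPM, TMM scaling, filterByExpr, the quasi-likelihood F test and Benjamini-Hochberg adjustment were those of edgeR 4.0.16 (R 4.3.3), with group as the only term and a threshold of 0.05. Shares and densities were compared with exact permutation tests, and coding-only shares and the Cdk2 exon were added after the data were seen. The comparison of coding densities was not planned. Reads were also matched on both strands to GENCODE M21 transcripts (GRCm38), and promoters came from RefSeq GRCm38.p6. The fit was tested on simulated data. Alternatives were DESeq2 1.42.0, other scalings and filters, distinct sequences counted once, matched reads, median coverage with a regularizer of 10 tested with limma 3.58.1, thinning, the replicate number as a block and each library left out.

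Pairs of libraries within a group differed beyond counting noise, with a chi-square over its degrees of freedom of 1.75 for CD24- replicates 1 and 2, which were much closer than the other pairs (9.69 to 15.9). The labels and methods give each its own plate, which the counts cannot show, and each was counted as a replicate. The 10 genes and the gene lists were chosen with earlier results of these data known. Named pathway genes were those called with an absolute log2 fold-change of at least 1 and otherwise the 2 largest called changes per direction and list, at a mean of at least 1 log2 CPM, while the other inhibitors and Mki67 were named after their values were seen. A gene that this rule names, and a marker, are not reported here.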

Additional observations from a re-analysis of the deposited data

Results flagged for a closer look

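Some of the reads that matched the transcripts of a member but were outside the deposited count of that gene are listed here. The list is not complete, as 807 unannotated reads of Ccnd3 and 761 reads of Cdk2 under another annotation are left out. For Cdk6 there were 8580 such reads without annotation, 98.7% of them in the 3′ UTR, with means of 124 ± 6.17 CPM in the CD24- group and 113 ± 10.1 CPM in the CD24+ group (SD over 3 libraries), with overlap between groups (exact permutation test, two-sided p = 0.2). For Cdkn2c there were 3137, all in the 5′ UTR, at 23.7 ± 1.02 and 56.6 ± 0.899 CPM, and for Cdkn1b 2617, all in the 3′ UTR, at 26.9 ± 4.21 and 42.4 ± 0.979 CPM, both without overlap (exact permutation test, two-sided p = 0.1 each). For Ccne2, 1488 matched reads were annotated to Ints8.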

How the results depend on the processing

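Of 258 values recomputed under the alternatives, 229 kept both direction and call, or moved by less than the replicate spread or a factor of 1.5 for counts, among them 145 of 160 for the fold-changes of the 10 genes. These include 13 values, 10 of them fold-changes, from a filter of at least 1 CPM that kept the same 11125 genes and could not differ. With each distinct sequence counted once, 4 of the 10 genes were called (33.4% of all tested), Ccnd1 (0.11), Ccnd3 (-0.29) and Cdk2 (-0.17) did not pass, and Cdk4 (-0.056) and Ccne2 (0.033), neither called, changed sign. With the median coverage estimate 3151 of 9585 genes and 12 of 57 pathway genes were called, Cdk2 (-0.19) and Cdkn1b (0.056) did not pass, and Ccne2 was 0.0068. Ccnd2 and Cdkn2c passed there with smaller changes, 1.01 and 0.84, in an estimate that adds 10 to each value. The CD24+ minus CD24- difference in share, in percentage points, was -2.07 for Ccnd1, 8.15 for Ccnd2, -6.08 for Ccnd3 and 1.90 for Cdk4 without division by length. It was -2.11 for Ccnd1, 10.7 for Ccnd2 and -0.32 for Cdk4 with distinct sequences, 6.26 for Ccnd2, -11.8 for Ccnd3 and 1.03 for Cdk4 on matched reads, and 1.30 for Cdk4 on coding parts. The causes were not tested.

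Leaving out each library in turn gave log2 fold-changes of 0.40 to 0.52 for Ccnd1, 3.83 to 4.03 for Ccnd2, -0.50 to -0.38 for Ccnd3, 0.07 to 0.16 for Cdk4, -0.27 to -0.14 for Cdk6, -0.66 to -0.36 for Ccne1, -0.12 to 0.13 for Ccne2, -0.31 to -0.22 for Cdk2, 0.42 to 0.59 for Cdkn1b and 1.41 to 1.49 for Cdkn2c. Ccne2 changed sign without CD24- replicate 3 (0.11) and without CD24+ replicate 3 (0.13). Between 5 and 7 of the 10 genes, 15 and 22 pathway genes, and 4069 and 5358 of all genes were called. Shares differed by 4.12 to 6.18 points for Ccnd1, 4.38 to 4.87 for Ccnd2, -10.7 to -8.76 for Ccnd3, 0.24 to 0.40 for Cdk4 and -9.67 to -5.95 for Ccne1.

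With the replicate block, 4493 genes and 6 of the 10 were called, Cdk2 being lost (-0.27, adjusted p = 0.0575 from edgeR), and the block changed no other call among the 10. The correlations of deviations from the group means were 0.018, -0.32 and -0.37 for same-numbered libraries. Among pairs with different numbers, the highest was 0.35, for CD24- replicate 3 and CD24+ replicate 2. The lowest was -0.25, for CD24- replicate 1 and CD24+ replicate 2. A block on the replicate number does not cover such pairs, and what they share was not tested.

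Fewer than 100 reads per CD24- library limit Ccnd2, whose relative counting error there is the largest of the 10 genes. Counting error alone is covered by read numbers, and reads without molecular identifiers are not independent molecules.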
